A study of Homo sapiens with 24 samples.

Results

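The genes described are 10 of the cyclin-dependent kinase (CDK) engine of the cell cycle, out of 25161 gene symbols in the deposited array table. They were CCNA2, CCNB1, CCNB2, CCNE1 and CCNE2, which encode cyclins A2, B1, B2, E1 and E2, CDK1 and CDK2, which encode the kinases that these cyclins activate, and CDC25A, CDC25B and CDC25C, which encode the phosphatases that switch the kinases on. The genes were taken by symbol, with earlier results of these data known, and each had a single row in the table, so that no choice between rows was needed.

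RNA was measured on Clariom D human arrays in 2 established B-cell lymphoma lines, SU-DHL-4 from a diffuse large B-cell lymphoma (DLBCL) and DG-75 from a Burkitt lymphoma (BL). Cells of each line were kept for 72 h in DMSO as the control, in 1 µM Entospletinib (Ento, an inhibitor of the kinase SYK), in 0.01 µM AZD5153 (AZD, a bivalent inhibitor of BET family bromodomains), or in both agents at these concentrations (Ento+AZD). The 8 groups had 3 arrays each, 24 in all, labelled N1 to N3 and called replicates 1 to 3 here. The methods speak in general of biologically independent samples, but the labels do not say whether these replicates were separate cultures, so p-values measure the spread between these arrays, which may be technical, and each lymphoma type was represented by 1 line.

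As background, cyclin E with CDK2 drives entry into S phase, cyclin A takes part in S phase with CDK2 and in G2 with CDK1, and cyclin B with CDK1 drives entry into mitosis. WEE1 and PKMYT1 hold CDKs inactive by phosphorylation, and CDC25 phosphatases remove these phosphates. Transcripts of most of these genes rise and fall with the cell cycle, under E2F factors at the G1/S transition and under the MuvB complex with MYBL2 and FOXM1 in G2 and mitosis, and in bulk RNA fewer cells in a given phase and less RNA per cell cannot be told apart.

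The proximal promoters are printed to show which of the letters known for those factors occur just before the starts of these genes. The 100 bases before an annotated start are given 5′ to 3′ on the strand of the gene, from RefSeq (GRCh38.p14), for 6 of the 8 genes with a promoter entry in the table used here (all but CCNE2 and CDK2), and the matches of CCNE1 and CDC25B are given in words. Capitals mark matches on either strand. The cell cycle homology region, through which MuvB acts, was searched as TTTGAA and in its second form as TTTAAA. The box bound by NF-Y was searched as CCAAT, which appears as its reverse complement where it lies on the other strand. An E2F site was searched as TTTGGCGC and, with a single letter changed, as TTTCGCGC. No match overlapped another in the printed windows. Where a gene had several annotated starts, the start with most matches in the printed window was taken.
CCNA2, chr4:121823884-121823983, minus strand: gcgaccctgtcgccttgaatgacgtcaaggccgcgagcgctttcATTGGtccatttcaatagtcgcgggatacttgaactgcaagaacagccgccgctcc
CCNB1, chr5:69167050-69167149, plus strand: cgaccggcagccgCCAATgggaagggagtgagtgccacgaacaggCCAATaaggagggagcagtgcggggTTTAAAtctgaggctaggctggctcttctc
CCNB2, chr15:59105046-59105145, plus strand: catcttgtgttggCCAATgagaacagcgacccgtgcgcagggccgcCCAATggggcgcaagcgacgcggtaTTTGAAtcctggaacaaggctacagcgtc
CDK1, chr10:60778378-60778477, plus strand: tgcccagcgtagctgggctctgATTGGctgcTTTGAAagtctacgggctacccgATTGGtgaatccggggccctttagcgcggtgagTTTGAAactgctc
CDC25C, chr5:138331805-138331904, minus strand: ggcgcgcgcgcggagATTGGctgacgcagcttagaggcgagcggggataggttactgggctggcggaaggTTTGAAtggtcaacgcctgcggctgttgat
CDC25A, chr3:48188418-48188517, minus strand: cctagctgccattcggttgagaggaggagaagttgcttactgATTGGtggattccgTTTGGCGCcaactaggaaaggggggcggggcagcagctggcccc

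The homology region letters began 30 bases before the start in CCNB1 and CDC25C and 29 bases before it in CCNB2, and CDK1 held them at 69 and 13 bases. CCAAT lay upstream of them in each of these genes. CDC25A held an E2F match 44 bases before the start with a CCAAT match at 58 bases. CDK1 also held E2F letters, outside the printed window, 128 bases before the printed start and 19 bases after its other start. CCNA2 held a CCAAT match at 56 bases and none of the homology region or E2F letters that were searched. CCNE1, a gene of the G1/S transition, held TTTAAA at 28 bases before its start and no CCAAT or E2F match. CDC25B, with 4 annotated starts, held CCAAT at 169 bases before one start and 73 bases before another, and TTTAAA at 32 bases after a different one. In 300-base windows around all 35116 annotated starts of the table, homology region letters occurred in 24% of windows, CCAAT in 34.6% and the E2F letters in 1.15%. A match is a description of sequence and not evidence of binding. Other forms of these elements were not searched, so the lack of a match does not show that an element was absent.

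Both lines carried B-cell transcripts. Group means of CD79A, a part of the B-cell receptor, lay between 11.3 and 12.3 on the log2 scale, and those of the germinal centre factor BCL6 between 11.1 and 11.9. Means of the 4 T-cell markers stayed between 1.44 and 4.29 in all groups, EPCAM between 2.11 and 2.70 and the monocyte marker LYZ between 2.32 and 2.88. The other monocyte markers were higher, with CD14 between 4.54 and 5.19 and CSF1R between 5.49 and 5.72, and KRT8, COL1A1 and COL1A2 lay between 5.76 and 7.21, all with no called change under treatment. Of all 19 markers, CD79B was the only one called under any treatment, with a log2 fold change of 1.03 ± 0.19 (SE) under Ento+AZD in DG-75. Array medians were 4.89 to 5.14, and across rows the correlation within groups was 0.981 to 0.992.

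In SU-DHL-4, Ento replicate 2 and Ento+AZD replicate 2 stood apart in these genes. Relative to the mean of the line, the mean of the 10 genes was -0.60 in Ento replicate 2 against 0.60 and 0.82 in the other Ento arrays, and -1.54 in Ento+AZD replicate 2 against -0.29 and -0.17. AZD replicate 2 was also the lowest of its group, at -0.47 against -0.12 and 0.11, whereas DMSO replicate 2 (0.37) was close to replicate 1 (0.46). The offsets of the first pair remained at -0.51 and -1.51 after the median of each array was subtracted. DG-75 arrays were closer, with 0.31 to 0.39 under Ento and -0.78 to -0.33 under Ento+AZD, and AZD replicate 1 was the lowest of its group at -0.69 against -0.11 and 0.01. Counts and medians for SU-DHL-4 are given also without the 2 low arrays, Ento replicate 2 and Ento+AZD replicate 2, where these moved them.

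**Figure D1:**
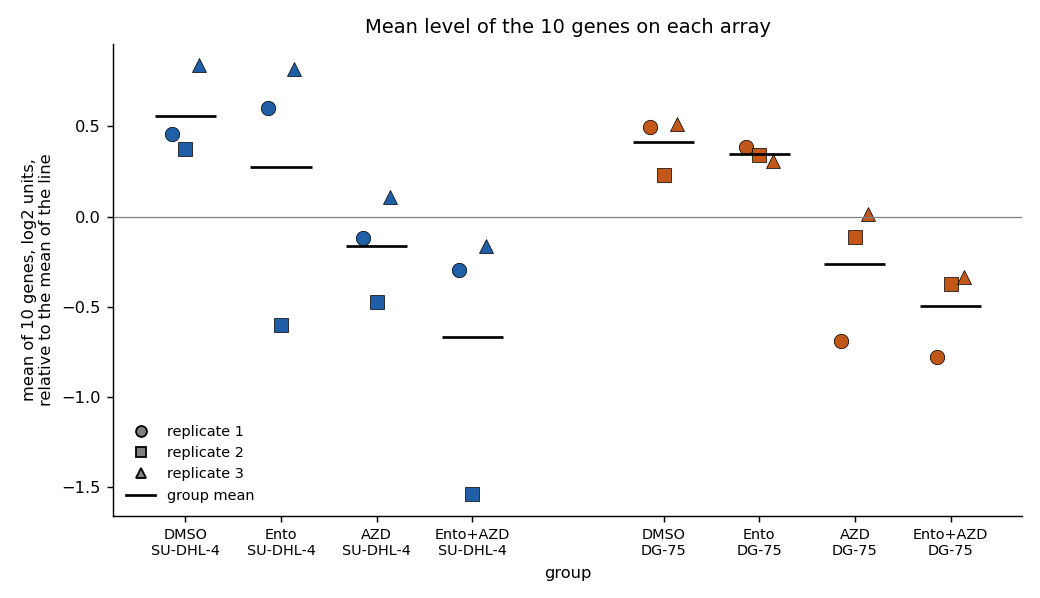
Mean of the 10 genes on each of the 24 arrays, in log2 units relative to the mean of its line (vertical axis), by group (horizontal axis), with marker shape for replicate number and a bar for the group mean. DMSO and Ento arrays lie above AZD and Ento+AZD arrays in DG-75, while Ento replicate 2 (-0.60) and Ento+AZD replicate 2 (-1.54) of SU-DHL-4 lie far below the other arrays of their groups.

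Of the 3 treatments, Ento+AZD was the only one with any of the 10 genes called in the fits of single lines. Against DMSO, 7 of 10 genes were called lower under Ento+AZD in SU-DHL-4 cells, where 1.09% of all 25575 rows were called lower, and 4 of 10 in DG-75, where 0.708% were. A call required a Benjamini-Hochberg adjusted p under 0.05 over all rows and an absolute log2 fold change above 1, in a limma fit of each line with replicate number as a term. CCNA2, CDK1, CDC25A and CDC25C were called in both lines, and CCNB2, CCNE2 and CDK2 in SU-DHL-4. The median log2 fold change of the 10 genes was -1.36 for SU-DHL-4 cells and -0.94 for DG-75 cells, beside -0.08 and -0.07 over all rows.

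**Figure D2:**
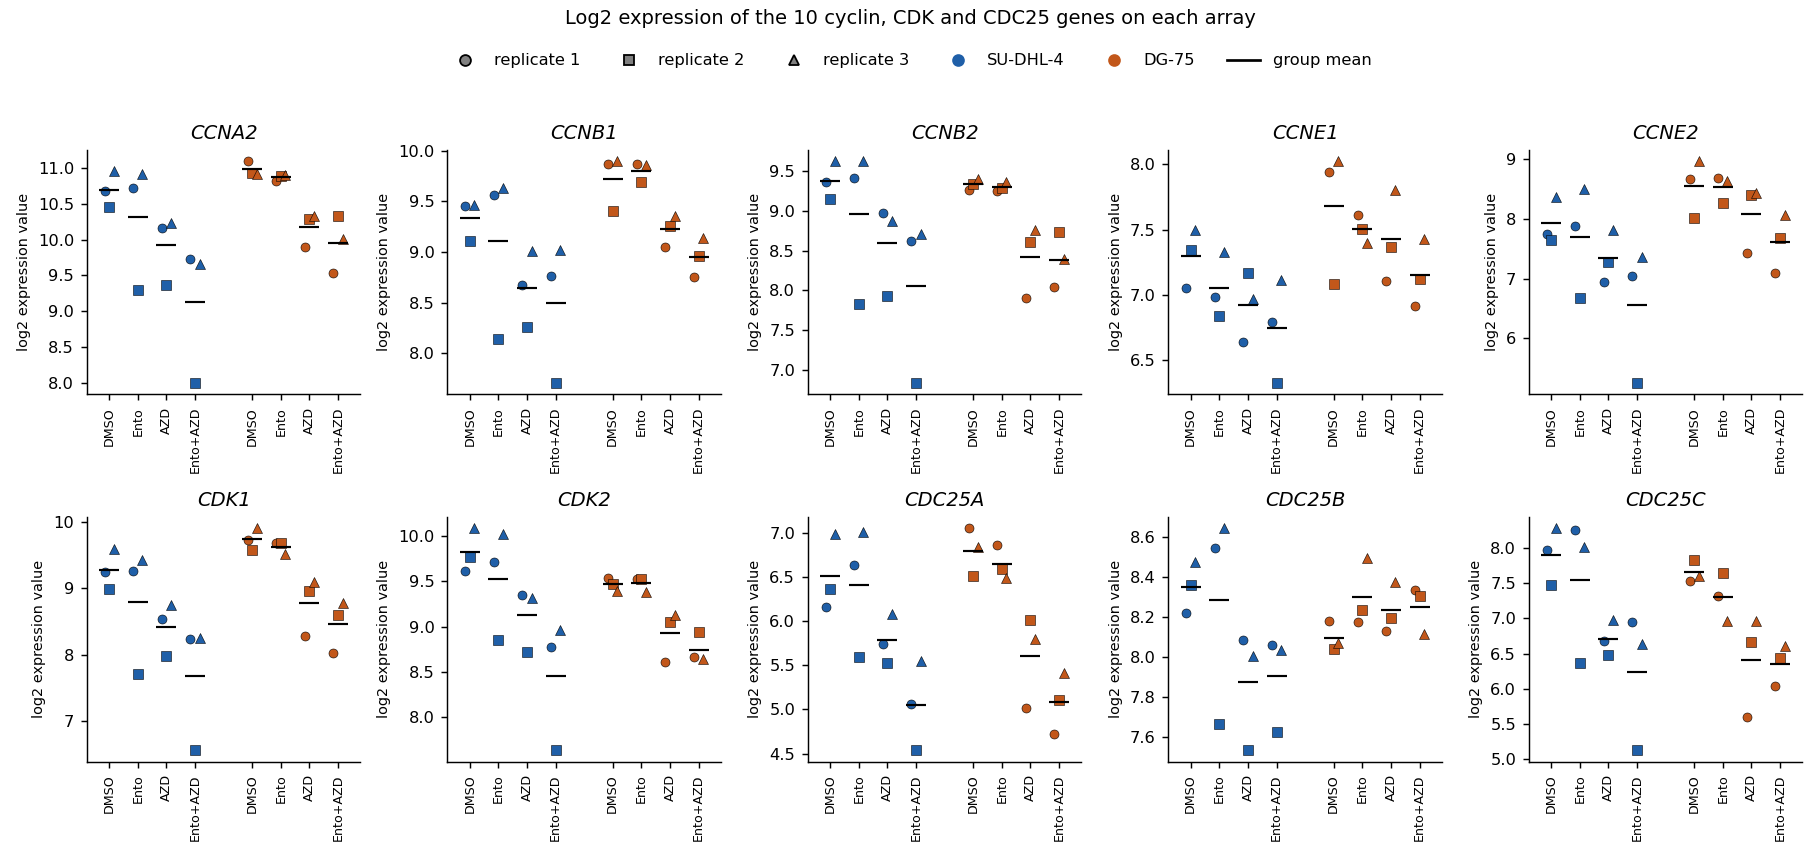
Log2 expression value (vertical axis of each panel) of the 10 genes on each array, for the 4 treatments in SU-DHL-4 (blue) and DG-75 (orange), with marker shape for replicate number and a bar for the group mean. All Ento+AZD arrays lie below all DMSO arrays for 9 SU-DHL-4 genes and 7 DG-75 genes, and CDC25B shows no such drop in the BL line.

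Cyclin A2, the partner of CDK2 and CDK1 in S and G2 phase, had log2 values of 10.68, 10.46 and 10.96 for CCNA2 in replicates 1 to 3 under DMSO in SU-DHL-4, and 9.72, 8.0 and 9.66 under Ento+AZD. In DG-75 it had 11.10, 10.93 and 10.91 under DMSO and 9.53, 10.33 and 10.02 under Ento+AZD. The groups did not overlap in either line, and replicate 2 of SU-DHL-4 was the lowest value of all. The fall was -1.57 ± 0.24 (SE, log2, adjusted p = 0.00779) in SU-DHL-4, to 33.6% of the control, and -1.03 ± 0.18 (adjusted p = 0.0214) in DG-75, to 49.1%. The DG-75 change was under the fold minimum after quantile normalization (-0.91) or median subtraction (-0.94).

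The B cyclins bring CDK1 into mitosis. CCNB1 had values of 9.45, 9.11 and 9.46 under DMSO and 8.76, 7.70 and 9.02 under Ento+AZD in SU-DHL-4, against 9.87, 9.40 and 9.90 and then 8.75, 8.96 and 9.14 in DG-75. The treated arrays lay below the control arrays in both lines, but CCNB1 was not called in either. Its log2 fold change was -0.84 ± 0.22 (adjusted p = 0.0662) in SU-DHL-4 and -0.77 ± 0.16 (adjusted p = 0.0316, under the fold minimum) in DG-75. CCNB2 was called at -1.33 ± 0.26 (adjusted p = 0.0223) in SU-DHL-4, from 9.38 ± 0.24 (SD, n = 3) to 8.05 ± 1.06. Its change of -0.95 ± 0.18 (adjusted p = 0.0244) in DG-75 was under the fold minimum.

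The E cyclins, partners of CDK2 at the G1/S transition, differed from each other in calls. CCNE2 was called in SU-DHL-4 at -1.37 ± 0.32 (adjusted p = 0.0466), from 7.93 ± 0.39 (SD, n = 3) to 6.56 ± 1.14, and its single values under Ento+AZD were 7.05, 5.25 and 7.37. Replicate 2 was the lowest of them, and all 3 lay below the DMSO arrays. The call was kept in 1 of 6 fits without a single array and was lost after quantile normalization (adjusted p = 0.0519) or median subtraction (adjusted p = 0.0723). In DG-75 the change of CCNE2 was -0.93 ± 0.27 (adjusted p = 0.109), with overlapping groups. CCNE1 was not called in either line, with changes of -0.55 ± 0.19 (adjusted p = 0.194) and -0.53 ± 0.22 (adjusted p = 0.273), and its Ento+AZD and DMSO arrays overlapped in both. The difference between CCNE1 and CCNE2 was not tested.

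CDK1, the kinase of mitotic entry, was called in both lines. Its log2 values were 9.25, 8.99 and 9.59 under DMSO and 8.23, 6.56 and 8.25 under Ento+AZD in SU-DHL-4, and 9.72, 9.58 and 9.91 against 8.02, 8.60 and 8.77 in DG-75. Every treated array was below every control array of its line. The changes were -1.60 ± 0.25 (adjusted p = 0.00815) and -1.27 ± 0.20 (adjusted p = 0.0182). CDK2, the kinase of S phase entry, changed by -1.36 ± 0.22 (adjusted p = 0.00884) in SU-DHL-4 and by -0.72 ± 0.15 (adjusted p = 0.0391, under the fold minimum) in DG-75.

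Among the phosphatases, CDC25A, which acts at G1/S and beyond, and CDC25C, which acts on cyclin B with CDK1, were called in both lines. CDC25A had values of 6.16, 6.36 and 6.99 under DMSO and 5.06, 4.54 and 5.55 under Ento+AZD in SU-DHL-4, and 7.05, 6.51 and 6.83 against 4.72, 5.11 and 5.41 in DG-75. The groups stood apart in both lines, and the DG-75 change of -1.71 ± 0.26 (adjusted p = 0.0176), to 30.5% of the control, was the largest among the 10 genes there. In SU-DHL-4 the change was -1.46 ± 0.20 (adjusted p = 0.00567). CDC25C changed by -1.67 ± 0.28 (adjusted p = 0.012) in SU-DHL-4, the largest there, and by -1.30 ± 0.26 (adjusted p = 0.0292) in DG-75. Both CDC25C calls depended on single arrays. With a single array left out, the SU-DHL-4 call was kept in 2 of 6 fits. The DG-75 call was kept in 0 of 6 such fits.

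CDC25B, the phosphatase linked to early steps of mitotic entry, was called in neither line. Its values were 8.22, 8.36 and 8.48 under DMSO and 8.06, 7.62 and 8.03 under Ento+AZD in SU-DHL-4, against 8.18, 8.04 and 8.07 and then 8.33, 8.31 and 8.12 in DG-75. Treated arrays were lower in all 3 same-numbered pairs of SU-DHL-4 and higher in all 3 of DG-75. The log2 fold changes were -0.44 ± 0.18 (adjusted p = 0.295) and 0.15 ± 0.14 (adjusted p = 0.669), and the interval in DG-75 ran from -0.16 to 0.47. Across the 12 arrays of a line, which share the 4 treatments, Pearson's r of CDC25B with the other 9 genes was 0.58 to 0.92 in SU-DHL-4 and -0.26 to -0.04 in DG-75, given as a description.

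All Ento+AZD arrays lay below all DMSO arrays for 9 of 10 genes in SU-DHL-4, where 16% of all rows did so, and for 7 of 10 in DG-75, where 14% did. The number of calls depended on single arrays. In SU-DHL-4 it was 0 without the replicate term or without DMSO replicate 2, 1 without Ento+AZD replicate 2, 4 without DMSO replicate 3 or Ento+AZD replicate 3, and 5 without both low arrays Ento replicate 2 and Ento+AZD replicate 2. In that last fit the median of the 10 genes was -1.0, CCNA2 had -1.21, CDK1 -1.22, CDK2 -1.06, CDC25A -1.30 and CDC25C -1.28, and CCNB2 (-0.94) and CCNE2 (-0.80) were no longer called. In DG-75 it was 0 when DMSO replicate 1 or 3 or Ento+AZD replicate 1 was dropped, 1 when Ento+AZD replicate 2 was, and 2 when DMSO replicate 2 was. Calls over all rows fell in the same fits, with 40 to 151 rows called lower in place of 278 in SU-DHL-4 and 0 to 64 in place of 181 in DG-75.

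Fitting both lines together gave 7 of 10 genes called lower under Ento+AZD, against 0.813% of all rows. CDC25A changed by -1.59 ± 0.17 (adjusted p = 2.32e-05), CDC25C by -1.49 ± 0.20, CDK1 by -1.43 ± 0.17, CCNA2 by -1.30 ± 0.17, CCNE2 by -1.15 ± 0.22, CCNB2 by -1.14 ± 0.17 and CDK2 by -1.04 ± 0.15, which was under the fold minimum after quantile normalization (-0.91) or median subtraction (-0.93). CCNB1 changed by -0.81 ± 0.13 (adjusted p = 0.000469), below the fold minimum although it was lower in all 6 same-numbered pairs. Without the 2 low SU-DHL-4 arrays, 4 genes (CCNA2, CDK1, CDC25A and CDC25C) were called, and CCNB2, CCNE2 and CDK2 stayed at an adjusted p of 0.00337 or less with changes of -0.94, -0.89 and -0.86.

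**Figure D3:**
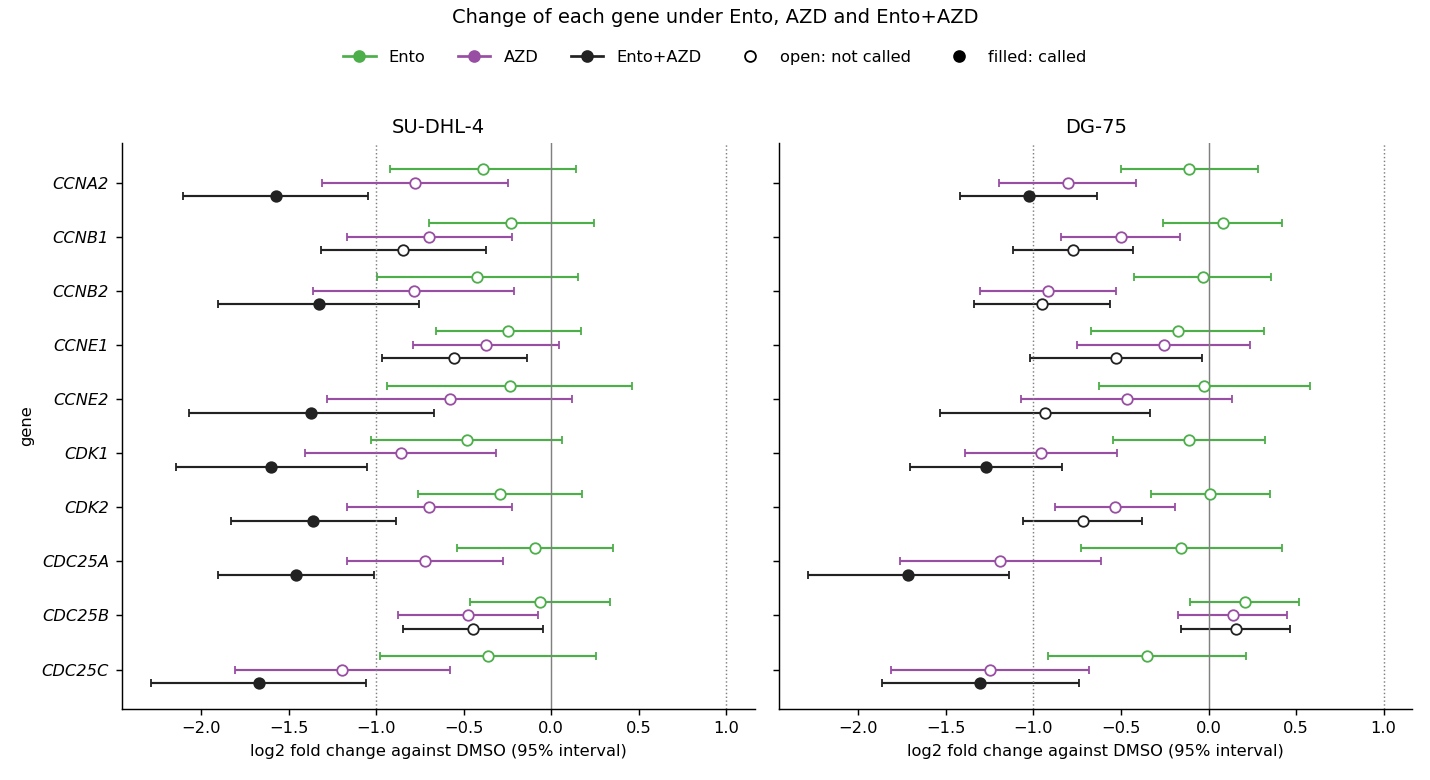
Log2 fold change of each gene against DMSO (horizontal axis, points) with its 95% interval (bars) under Ento, AZD and Ento+AZD in SU-DHL-4 and DG-75, filled where called and open where not, with dotted lines at a log2 fold change of 1 in either direction. Filled points occur only under Ento+AZD, 7 for SU-DHL-4 and 4 for DG-75, and AZD points mostly lie between Ento and Ento+AZD.

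AZD alone gave estimates below 0 for 10 of 10 genes in SU-DHL-4 cells and 9 of 10 in DG-75 cells, the exception being CDC25B, without a call. Most rows of the table were also below 0 under AZD. Of all 25575 rows, 16330 were so for the DLBCL line, and 15484 for the BL line. Called genes were 0 of 10 in SU-DHL-4, against 0.18% of all rows called lower, and 0 of 10 in DG-75, against 0.164%, by limma. At an unadjusted p under 0.05 there were 8 of 10 in SU-DHL-4, where 11.5% of all rows passed, and 7 of 10 in DG-75, where 13.8% did. The SU-DHL-4 count was 1 by limma without the replicate term and 3 without DMSO replicate 2. The median log2 fold change was -0.71 (SU-DHL-4), or -0.43 without DMSO replicate 2, and -0.67 (DG-75). CDC25C had the lowest estimate in both, -1.19 ± 0.28 (adjusted p = 0.122) and -1.25 ± 0.26 (adjusted p = 0.068), from DMSO values of 7.97, 7.47 and 8.28 to 6.68, 6.48 and 6.98 in SU-DHL-4 and from 7.53, 7.84 and 7.61 to 5.60, 6.67 and 6.96 in DG-75. No AZD array of CDC25C reached a DMSO array of its line. All AZD arrays lay below all DMSO arrays for 8 of the 10 genes in SU-DHL-4, as in 12.9% of all rows. In DG-75 they did for 7 of the 10, as in 14.6% of all rows. With both lines in 1 fit, CDC25C was called at -1.22 ± 0.20 (adjusted p = 0.00211), the only one of the 10 genes, against 0.25% of all rows. Leaving out single arrays gave up to 3 called genes there, when AZD replicate 2 of SU-DHL-4 was dropped, and 2 when DMSO replicate 1 of SU-DHL-4 or either DMSO replicate 2 or AZD replicate 2 of DG-75 was dropped.

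Ento alone gave 0 called genes of 10 with each line on its own and with both, against 0.0117% of all rows called lower by limma for SU-DHL-4, 0% for DG-75 and 0% for both lines. None of the 10 genes passed an unadjusted p of 0.05 in any of these 3 fits, where 8.59%, 2.81% and 6.36% of all rows did. Estimates ran from -0.48 for CDK1 to -0.07 for CDC25B in SU-DHL-4, and from -0.35 for CDC25C to 0.21 for CDC25B in DG-75. The 95% intervals reached down to -1.03 (CDK1, SU-DHL-4) and -0.91 (CDC25C, DG-75). For CCNA2 in SU-DHL-4 the Ento values were 10.72, 9.29 and 10.92. The first and last were within the DMSO range, and only replicate 2 was below it. The SU-DHL-4 estimates rested on single arrays. Their median was -0.27 with all arrays and from -0.44 (without DMSO replicate 1) to -0.02 (without DMSO replicate 2) with a single array left out. Without DMSO replicate 1, 4 of 10 genes passed an unadjusted p of 0.05 by limma, and 0 did without any other single array of these groups. In DG-75 the count was 1 without DMSO replicate 2 and 0 otherwise. The SU-DHL-4 median was -0.12 without Ento replicate 2 and -0.0031 without both low arrays, when 5 of the 10 genes had an estimate below 0 and CDK1 had -0.12.

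Set against the single agents, the combination was lower than Ento for CDC25A in SU-DHL-4 and for CDK1 and CDC25A in DG-75. Called genes were 1 of 10 in SU-DHL-4, against 0.0704% of all rows, and 2 of 10 in DG-75, against 0.598%. CDC25A changed by -1.36 ± 0.20 (adjusted p = 0.0451) and -1.56 ± 0.26 (adjusted p = 0.0228), and CDK1 in DG-75 by -1.16 ± 0.20 (adjusted p = 0.0243). The SU-DHL-4 call was lost on leaving out Ento replicate 1 or 3 or any single Ento+AZD array, but without both low arrays CDC25A was called at -1.52 (adjusted p = 0.0435), and both DG-75 calls on leaving out Ento replicate 1 or 2 or Ento+AZD replicate 1 or 2.

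Against AZD, 0 of 10 genes were called in SU-DHL-4, where 0.00391% of all rows were called lower, and 0 of 10 in DG-75, where 0% were. At an unadjusted p under 0.05 limma gave 5 of 10 genes in SU-DHL-4 (CCNA2, CCNE2, CDK1, CDK2 and CDC25A), where 7.03% of all rows passed, and 0 in DG-75, where 4.03% did. Both counts changed with single arrays, to 7 without Ento+AZD replicate 1, 3 without AZD replicate 2 and 1 without Ento+AZD replicate 2 or without the replicate term in SU-DHL-4, and to 4 without AZD replicate 1 and 1 without Ento+AZD replicate 3 in DG-75. The DG-75 median was -0.25, or -0.37 without AZD replicate 1 and -0.16 without AZD replicate 3. Estimates for SU-DHL-4 were -0.80 ± 0.24 for CCNA2 and -0.74 ± 0.20 (adjusted p = 0.503) for CDC25A. The median of the 10 genes, -0.60 with all arrays, was -0.32 once Ento+AZD replicate 2 was left out and -0.19 once both low arrays were, when 2 genes passed an unadjusted p of 0.05 by limma, and CCNA2 then had -0.43 and CDC25A -0.58. In DG-75 the lowest was CDC25A at -0.52, with an interval down to -1.10. These comparisons share arrays with those against DMSO and are not independent of them.

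The change under Ento+AZD was also set against the sum of the single-agent changes. No gene departed from that sum by a call, whichever the line, and 0% of all rows did so in either. By unadjusted p under 0.05, limma gave 1 gene in SU-DHL-4, CDC25A at -0.64 ± 0.29 (adjusted p = 0.96), where 4.99% of all rows passed, and 0 in DG-75, where 2.63% did. With single arrays left out the SU-DHL-4 count was 3 without DMSO replicate 2, 1 without Ento replicate 2 or AZD replicate 3 and 0 otherwise, and the median of the 10 genes, -0.19 with all arrays, ran from -0.53 in the first of these fits to 0.04 when Ento+AZD replicate 2 was dropped. Intervals of the 10 genes ran from as low as -1.54 to as high as 0.75 for SU-DHL-4 and from -1.29 to 1.09 for DG-75.

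The order of group means was DMSO, Ento, AZD and Ento+AZD from high to low for 9 of 10 genes of SU-DHL-4, where 10.3% of all rows had this order, and 7 of 10 genes of DG-75, where 10.5% did. In SU-DHL-4 the exception was CDC25B, with AZD lowest. All 30 pairs of neighbouring groups overlapped there, and without the low arrays the estimates of Ento against DMSO were above 0 for 5 genes and those of Ento+AZD against AZD for 3. In DG-75 the middle neighbours of the order did not overlap for 7 genes (CCNA2, CCNB1, CCNB2, CDK1, CDK2, CDC25A and CDC25C), with all DMSO and Ento arrays above all AZD and Ento+AZD arrays in each, as in 5.55% of all rows. The AZD and Ento+AZD arrays overlapped for all 10 genes. CCNA2 was the only gene of DG-75 whose DMSO arrays (10.91 to 11.10) and Ento arrays (10.82 to 10.90) did not overlap, and 3.56% of all rows had Ento below DMSO in this way.

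The lines were compared directly. Under DMSO 0 of 10 genes differed by a call, whereas 7.2% of all rows did in either direction, and none passed an unadjusted p of 0.05 in limma, as 27.6% of all rows did. The estimates of SU-DHL-4 minus DG-75 ran from -0.62 for CCNE2 to 0.36 for CDK2, with intervals within -1.58 and 1.15. Differences between the lines in response gave 0 of 10 genes for Ento, AZD and Ento+AZD, against 0.00782%, 0% and 0.0352% of all rows. At an unadjusted p under 0.05 there were 0, 1 and 2 genes, where 4.43%, 6.16% and 6.51% of all rows passed, and with a single array left out the counts were 0, 0 to 1 and 0 to 3. The lowest counts for AZD and Ento+AZD came without DMSO replicate 2 of SU-DHL-4. CDC25B differed by -0.61 ± 0.23 (adjusted p = 0.703) under AZD and by -0.60 ± 0.23 (adjusted p = 0.623) under Ento+AZD, and CDK2 by -0.64 ± 0.28 (adjusted p = 0.706) under Ento+AZD. Without the low arrays the last value was -0.34 and that of CDC25B under Ento+AZD was -0.54. For CDC25A the difference under Ento+AZD was 0.26 with an interval from -0.48 to 1.00. A call in 1 line alone does not show that the lines differed.

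Of 57 other genes of the same control circuit, 12 were called lower and 0 higher by Ento+AZD treatment of SU-DHL-4 cells, and 8 lower and 0 higher in the BL line, beside the 1.09% and 0.708% of all rows. The median log2 fold changes of the 57 genes were -0.37 and -0.44. In DG-75 none of the 8 was called without DMSO replicate 1 or without Ento+AZD replicate 1, where 0 of all rows were. Without the low arrays 6 of the 12 were called in SU-DHL-4 (CDKN1B, CHEK1, AURKA, E2F2, E2F8 and FOXM1), E2F8 had -1.51 and CLSPN -0.82, and the median was -0.28. Ento alone gave 0 of 57 in each line, with 5 (SU-DHL-4) and 0 (DG-75) at an unadjusted p under 0.05 by limma, beside 8.59% and 2.81% of all rows, so the first count was near the background. AZD alone gave CDKN1B as 1 call for SU-DHL-4 and 0 for DG-75, with 21 and 34 at an unadjusted p under 0.05, beside 11.5% and 13.8% of all rows. In SU-DHL-4 that call fell to 0, as did calls over all rows, after quantile normalization or median subtraction. The same held without any single DMSO array or AZD replicate 1 or 3.

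WEE1, a kinase that restrains CDKs and so opposes the phosphatases, changed by -1.14 ± 0.20 (adjusted p = 0.0136) in SU-DHL-4 and by -0.91 ± 0.15 (adjusted p = 0.0214, under the fold minimum) in DG-75. PKMYT1, the other kinase of this kind, changed by -0.74 ± 0.15 and -0.79 ± 0.30 and was not called. Among 5 checkpoint genes, CHEK1, whose kinase marks CDC25A for destruction, was called in both lines at -1.72 ± 0.28 (adjusted p = 0.00982) and -1.11 ± 0.16 (adjusted p = 0.0162), and CLSPN, its adaptor, in SU-DHL-4 at -1.44 ± 0.34 (adjusted p = 0.0466).

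Of 5 CDK subunits and inhibitors, CDKN1B, the inhibitor p27, was called lower in SU-DHL-4 at -1.39 ± 0.18 (adjusted p = 0.00478), and at -1.37 ± 0.18 (adjusted p = 0.0312) under AZD alone. The AZD call was lost after quantile normalization or median subtraction. It was also lost without any single DMSO array or AZD replicate 1 or 3. In DG-75 its change under Ento+AZD was -0.01 ± 0.20. Its DMSO level was already lower in SU-DHL-4 cells, the difference from DG-75 being -1.49 ± 0.45 (adjusted p = 0.0223). CDKN1A, the inhibitor p21, changed by -0.24 ± 0.16 and 0.00 ± 0.15 under Ento+AZD. CKS1B, a CDK subunit, was called in DG-75 at -1.0 ± 0.14 (adjusted p = 0.0162).

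Among 8 genes of mitotic entry, AURKA, which activates PLK1, was called in both lines at -1.33 ± 0.19 (adjusted p = 0.00597) and -1.05 ± 0.14 (adjusted p = 0.0162). PLK1, which acts on CDC25C and WEE1, was called in SU-DHL-4 at -1.39 ± 0.25 and had -0.86 ± 0.15 in DG-75, and MASTL, which restrains the opposing phosphatase PP2A, was called in DG-75 at -1.09 ± 0.23. Of 8 genes of cyclin and CDC25 degradation, UBE2C, the conjugating enzyme of the anaphase-promoting complex, was called in both lines at -1.46 ± 0.26 and -1.03 ± 0.21. CCNF and SKP2, substrate receptors of SCF ligases, were called in SU-DHL-4 at -1.12 ± 0.19 and -1.08 ± 0.16.

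The 19 transcriptional regulators of cyclin genes gave 3 calls in each line. E2F8, a repressor of the E2F family, fell most at -2.27 ± 0.39 (adjusted p = 0.012) and -1.68 ± 0.30 (adjusted p = 0.0215), and the activator E2F2 at -1.46 ± 0.25 and -1.03 ± 0.18. FOXM1, a driver of G2/M genes, was called in SU-DHL-4 at -1.57 ± 0.25 (adjusted p = 0.00963) and had -0.95 ± 0.17 in DG-75, where LIN9 of the MuvB core was called at -1.13 ± 0.23. E2F1 had -0.84 ± 0.25 and -0.99 ± 0.18 and MYBL2 -0.39 ± 0.16 and -0.75 ± 0.18, and neither was called.

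The 5 D cyclin genes and partner kinases of early G1 gave 0 calls under any treatment in either line, with 2 of 5 at an unadjusted p under 0.05 under Ento+AZD in each line by limma, beside 14% and 16% of all rows. CCND3 had -0.37 ± 0.14 (SU-DHL-4) and -0.40 ± 0.15 (DG-75). Under DMSO CCND2 was higher and CCND3 lower in the DLBCL line, with differences of 1.00 ± 0.24 (adjusted p = 0.00455) and -1.51 ± 0.14 (adjusted p = 1.33e-08). CCNA1 and CCNB3, related cyclins outside the group, had 0 calls, and both were also above an unadjusted p of 0.05.

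**Figure D4:**
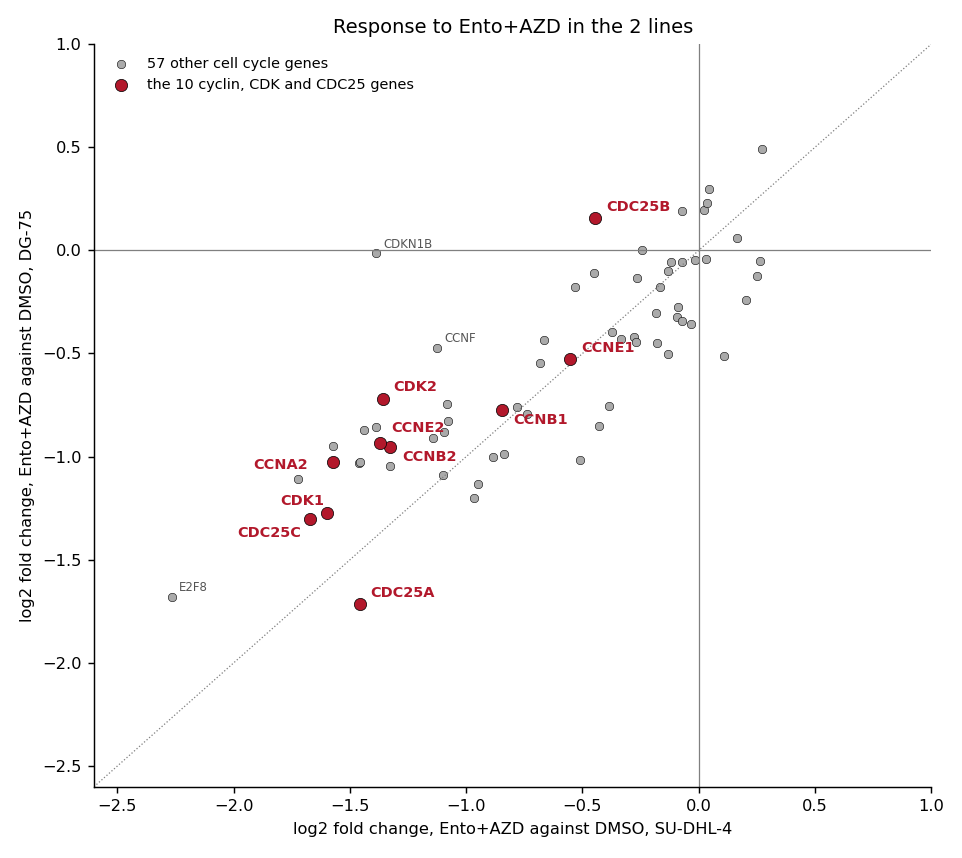
Log2 fold change under Ento+AZD against DMSO in SU-DHL-4 (horizontal axis) and DG-75 (vertical axis) for the 10 genes (red) and 57 other cell cycle control genes (grey), with a dotted line of equal change. The 10 genes lie in the lower left except CDC25B (-0.44 and 0.15), E2F8 is lowest on the horizontal axis, and CDKN1B lies far left at -1.39 and -0.01.

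Genes with patterns closest to the mean of the 10, by Pearson's r over the 24 arrays after centring within each line, were NDC80 (0.993), TPX2 (0.988), PRC1 (0.988), CHEK1 (0.985) and CKAP2L (0.982). NDC80 is a kinetochore protein, and TPX2 and PRC1 act on the mitotic spindle. For CDC25A alone they were CAMTA1 (0.964), ATAD5 (0.964), NUP35 (0.956), RIF1 (0.956) and MCM6 (0.954), of which ATAD5, RIF1 and MCM6 act in DNA replication. For CCNB1 alone they were HMMR (0.971), H2BC10 (0.963), H2AZ1 (0.958), PCLAF (0.955) and CKAP2L (0.955). All points share the same 8 groups and arrays, so that these values describe likeness in these libraries.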

How the data were processed

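Clariom D arrays of 24 samples were processed by the authors, who deposited log2 values per gene symbol, normalized by robust multi-array average (RMA, with limma in the submitters' processing notes) and mapped to genes with a Clariom D transcript cluster package. Although RMA includes a normalization between arrays, array medians in the deposited table still differed. The genome build and detection calls are not given in the sources used here. All 25575 rows entered linear models (limma 3.58.1 under R 4.3.3, moderated by eBayes), each line on its own with treatment and replicate number, since the methods name a batch without defining it. Both lines were fitted with line as an additive term, and differences between lines in 1 fit of 8 groups. P-values were adjusted by Benjamini-Hochberg over all rows of each of 19 comparisons. The number of arrays limits the precision. The 10 genes, the 57 further genes and the markers were chosen with earlier results of these data known. Of the further genes, those with a call could be named, and of the others WEE1, PKMYT1, CDKN1A, CDKN1B, PLK1, FOXM1, MYBL2 and E2F1, and the genes most like the group were the 5 with the highest r. CCND3 and the related cyclins CCNA1 and CCNB3 were named after their values were seen. Groups came from the sample titles, and 0 columns were left unassigned. Alternatives were quantile normalization, median subtraction, a filter on low rows, a trended robust prior, no fold minimum, no replicate term and single arrays left out. The scripts were tested on simulated data.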

Additional observations from a re-analysis of the deposited data

Results flagged for a closer look

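For CDC25B under Ento+AZD the same-numbered differences from DMSO had opposite signs in the lines, although neither change was called and the interval in DG-75 ran from -0.16 to 0.47. All 3 were negative in SU-DHL-4 (mean -0.44, log2) and all 3 were positive in DG-75 (mean 0.15). The difference between the lines was -0.60 with an unadjusted p of 0.0185 and a limma adjusted p of 0.623, so it did not pass the correction.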

How the results depend on the processing

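The replicate numbers did not pair the arrays in both lines. In SU-DHL-4, deviations from group means correlated above 0.1 in 12 of 18 same-numbered pairs (median r 0.15). Pairs with different numbers did so in 1 of 36 (median r -0.07). In DG-75 it was 7 of 18 same-numbered pairs (median r 0.04) and 11 of 36 others (median r -0.01). Same-numbered arrays thus tended to deviate together in SU-DHL-4 but not in DG-75. The term was kept because the methods use a batch. With no replicate block the called genes under Ento+AZD in SU-DHL-4 went from 7 to 0, as rows called lower overall went from 278 to 40, and those against Ento from 1 to 0. Quantile normalization gave 0 for that comparison with Ento, the filter on low rows 3 and the trended robust prior 5. The same prior gave 1 called gene under AZD for SU-DHL-4 and 2 for DG-75, and the filter 2 for DG-75. With no fold minimum DG-75 had 7 under Ento+AZD and 6 for Ento+AZD against Ento, and both lines had 7 under AZD.

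Leaving out single arrays gave 0 to 7 called genes for Ento+AZD in SU-DHL-4, 0 to 3 in the BL line, 0 to 1 for Ento+AZD against Ento in SU-DHL-4, 0 to 3 for the same in the BL line, 0 to 1 for AZD in SU-DHL-4, 1 to 3 for AZD in both lines and 5 to 7 for Ento+AZD in both lines. Leaving out the 2 low SU-DHL-4 arrays, chosen after the data were seen, gave 5 for Ento+AZD and 1 for AZD in SU-DHL-4, 6 in place of 12 further genes for Ento+AZD in SU-DHL-4, and 4 for Ento+AZD in both lines. Quantile normalization and median subtraction each lost the Ento+AZD calls of CCNE2 in SU-DHL-4, CCNA2 in DG-75 and CDK2 in the fit of both lines. Median subtraction moved the median of all rows under Ento+AZD in SU-DHL-4 from -0.08 to 0.05 and that of the 10 genes from -1.36 to -1.24. Of the values of single called genes, over the fits of single lines and of both lines, 253 stayed called, 75 lost the call and 0 turned in direction. They include the setting with no fold minimum, in which a call could not be lost. Most of the losses fell in the fits of single lines.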
